A study of Mus with 6 samples.

Results

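Colony stimulating factors are secreted or membrane-bound proteins that drive the survival, division and release of myeloid cells, and each one acts through a receptor of its own. CSF1, also known as M-CSF, is the main growth factor of monocytes and macrophages and binds the receptor tyrosine kinase CSF1R. CSF3, also known as G-CSF, mobilises neutrophils through CSF3R, while KITL, the stem cell factor, acts on mast cells and progenitors through KIT, and CSF2RB is the signalling chain that the receptors for GM-CSF, IL-3 and IL-5 share. The 6 genes followed here were the ligands Csf1, Csf3 and Kitl and the receptors Csf1r, Csf2rb and Csf3r, chosen by symbol among 55421 counted Ensembl genes. A count row could be tied to 5 of them, and 4 passed the filter on low counts and were tested. Csf3r had no Ensembl identifier in the name lists at hand and was not analysed here.

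The RNAseq compared lens epithelial cells (LECs) of wild type C57BL/6 mice at 0 h and at 6 h post cataract surgery (PCS), a model in which the fiber cells are taken out of the lens and the LECs stay on the capsule. Each time point had 3 libraries, each made from RNA of 5 pooled capsules. The sample labels give an age of 2 months, while the study's methods give an older range, and no library carried a mutation or drug treatment. The first eye of a mouse was operated 6 h before the second one, so capsules of both time points can come from the same mice. Which pools share mice is not given, so the p-values below measure only the spread between these pools.

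Between 18039974 and 24701039 read pairs per library were counted on genes. Levels are given as CPM, counts per 1e+06 gene counts after TMM scaling of the libraries, or, where genes are compared with each other, as FPKM, which also divides by the exon length. Differentially expressed genes (DEGs) had an adjusted p no higher than 0.05 and changed more than 2-fold by the quasi-likelihood F-test of edgeR (QLF), adjusted by Benjamini-Hochberg over the 16810 genes tested. By this rule 4.53% of all tested genes were upregulated and 0.821% were downregulated at 6 h PCS. On library sizes alone the median log2 fold change of all tested genes moved from −0.003 to −0.32, and 572 of 1199 DEGs were upregulated instead of 762 of 900, so a direction given here is relative to the TMM scale.

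All 3 ligand genes were upregulated at 6 h PCS, Csf1 and Kitl by 6.26-fold and 6.61-fold and Csf3 from near absence by 233-fold, whereas the receptor gene Csf1r did not pass the test. Beside these 3 DEGs and Csf1r, Csf2rb stayed under the low-count filter and Csf3r was not analysed. Csf3 passed the filter only through the 6 h libraries, so a tested Csf3 had to be higher there, and the set of genes was proposed with results of these data known. Among all tested genes, 15.3% had all 6 h libraries above all 0 h libraries and 15.3% had them all below.

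**Figure D1:**
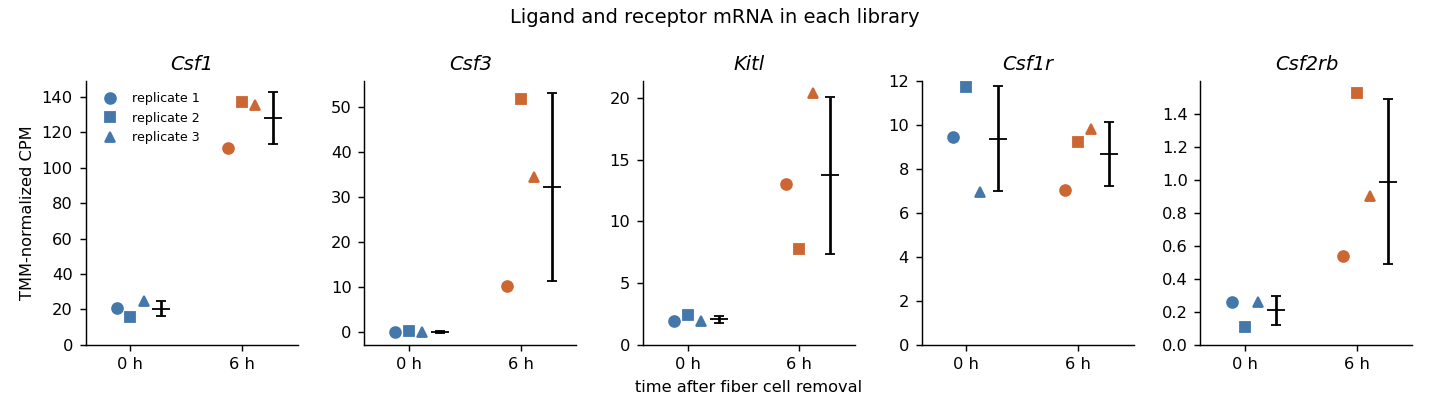
CPM after TMM scaling (y axes, linear) of the 5 analysed genes in the 3 libraries at 0 h and the 3 at 6 h PCS, 1 point per library, with a dash for the mean and error bars for the SD. The time points do not overlap for Csf1, Csf3, Kitl and Csf2rb, and they overlap for Csf1r (6.95 to 11.7 CPM at 0 h, 7.05 to 9.82 CPM at 6 h).

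Csf1 (ENSMUSG00000014599, chromosome 3, 107741048 to 107760469, GRCm38) had 482, 435 and 573 counts in the 0 h libraries and 1654, 3051 and 2253 counts in the 6 h libraries. After scaling these were 20.7, 15.8 and 24.7 CPM at 0 h and 111, 137 and 136 CPM at 6 h. The lowest 6 h library thus lay above the highest 0 h library by a wide margin, and the 3 libraries at 6 h were close together. The mean went from 20.4 ± 4.45 CPM (SD, n = 3) to 128 ± 14.7 CPM (SD, n = 3), which is 2.65 on the log2 scale (standard error 0.189, 95% interval 2.23 to 3.07, adjusted p = 0.000115, edgeR QLF). Csf1 remained a DEG in all 6 fits that left out 1 library, with log2 fold changes of 2.49 to 2.80. Its increase was the 321st in size of the 16810 genes tested.

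Csf3 (ENSMUSG00000038067, chromosome 11, 98700183 to 98703631, GRCm38) had 0, 10 and 0 counts at 0 h and 154, 1155 and 575 counts at 6 h. These were 0, 0.364 and 0 CPM at 0 h and 10.3, 51.9 and 34.6 CPM at 6 h. A count of 0 allows a level of up to 0.129 CPM in 0 h replicate 1 and 0.13 CPM in 0 h replicate 3 (3 counts, counting error only, since PCR copies were not told apart by molecular identifiers). Every 6 h library was far above every 0 h library, but the 6 h libraries differed by 5.02-fold among themselves, with replicate 2 the highest and replicate 1 the lowest. In 6 h replicate 1, 66.4% of read pairs were not counted for any gene, against 58.8% to 60.5% in the other 5 libraries, and its TMM factor was the lowest (0.827). Of the 6 h libraries it also had the least Csf1, Csf1r, Csf2rb and Csf2. Without it Csf1, Csf3 and Kitl were still DEGs (2.74, 8.28 and 2.76 on the log2 scale). The mean went from 0.121 ± 0.21 CPM to 32.3 ± 20.9 CPM (SD, n = 3 each), or by 7.87 on the log2 scale (standard error 1.18, 95% interval 4.90 to 10.84, adjusted p = 0.0178, edgeR QLF), the 9th largest increase of all genes tested. The call rested on few libraries: Csf3 was no longer a DEG without 0 h replicate 1 (log2 fold change 7.34, adjusted p = 0.0683), without 0 h replicate 3 (7.33, adjusted p = 0.0523) or without 6 h replicate 3 (7.82, adjusted p = 0.0629), although the direction held in each. Without 0 h replicate 2 the remaining 0 h libraries held no count, so a fold change cannot be given. The mean of the 6 h libraries stood 250-fold above a level of 3 counts per library at 0 h. That value is no lower bound, since it sets aside the spread at 6 h and the counts of 0 h replicate 2. Csf3 was a DEG in this fit (adjusted p = 0.0475, edgeR QLF).

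Kitl (ENSMUSG00000019966, chromosome 10, 100015615 to 100100416, GRCm38) had 44, 66 and 44 counts at 0 h and 194, 172 and 339 counts at 6 h. These were 1.89, 2.4 and 1.9 CPM at 0 h and 13, 7.74 and 20.4 CPM at 6 h. The groups did not overlap, and at 6 h replicate 3 was the highest and replicate 2 the lowest, the latter being the library with the most Csf1 and Csf3. The mean went from 2.07 ± 0.294 CPM to 13.7 ± 6.37 CPM (SD, n = 3 each), or by 2.72 on the log2 scale (standard error 0.375, 95% interval 1.89 to 3.56, adjusted p = 0.00231, edgeR QLF). Kitl was a DEG in all 6 fits that left out 1 library, with log2 fold changes of 2.32 to 3.00.

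The 6 h libraries varied more in Csf3 (coefficient of variation 64.7%) and Kitl (46.4%) than in Csf1 (11.5%), which is a description of 3 libraries and was not tested. Per kilobase of exon, Csf1 was the most abundant ligand transcript at 0 h, with 4.28, 3.34 and 5.36 FPKM against 0.349, 0.452 and 0.367 FPKM for Kitl and 0, 0.287 and 0 FPKM for Csf3. The order Csf1, Kitl, Csf3 held in each 0 h library. At 6 h Csf1 reached 17.4, 25.7 and 22.5 FPKM, Csf3 reached 6.04, 36.3 and 21.5 FPKM and Kitl reached 1.82, 1.29 and 3.03 FPKM. Kitl was then the lowest of the 3 in every library, and Csf3 exceeded Csf1 in replicate 2 only, so the mean levels of Csf1 (21.9 ± 4.2 FPKM) and Csf3 (21.3 ± 15.1 FPKM) did not differ beyond their spread (SD, n = 3 each).

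The summed level of the 3 ligand transcripts went from 4.81 ± 0.84 FPKM to 45.2 ± 19.1 FPKM (SD, n = 3 each), without overlap. Csf3 made up 0%, 7.03% and 0% of that sum in the 0 h libraries and 24%, 57.4% and 45.7% in the 6 h libraries. Both differences gave p = 0.1 in a two-sided exact permutation test, the smallest value that 3 against 3 libraries allow. The ratio of Csf1 to Kitl was 12.3, 7.38 and 14.6 at 0 h and 9.54, 19.9 and 7.44 at 6 h, with overlapping groups (p = 0.9, two-sided exact permutation test on log2 ratios). The study also asked for a mean above 2 FPKM and a change above 2 FPKM. Csf1 and Csf3 met this with changes of 17.5 and 21.2 FPKM, and Kitl, with a change of 1.66 FPKM, did not.

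**Figure D2:**
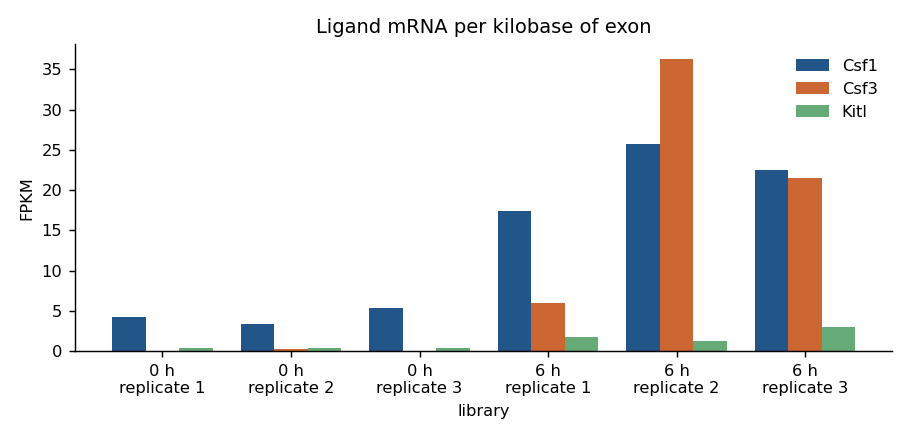
FPKM (y axis, linear, from 0) of Csf1, Csf3 and Kitl in each of the 6 libraries (x axis), 1 bar per gene. Csf1 leads in every 0 h library, and at 6 h Csf3 ranges from 6.04 FPKM in replicate 1 to 36.3 FPKM in replicate 2, where it exceeds Csf1.

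Csf1r (ENSMUSG00000024621, chromosome 18, 61105572 to 61131139, GRCm38), whose product is the receptor of both CSF1 and IL-34, had 220, 322 and 161 counts at 0 h and 105, 205 and 163 counts at 6 h. These were 9.46, 11.7 and 6.95 CPM at 0 h and 7.05, 9.22 and 9.82 CPM at 6 h. The groups overlapped, with the highest and the lowest value both at 0 h. The means were 9.38 ± 2.39 CPM and 8.7 ± 1.46 CPM (SD, n = 3 each), a difference of −0.11 on the log2 scale (standard error 0.269, adjusted p = 0.849, edgeR QLF). The 95% interval, −0.71 to 0.49 on the log2 scale or 0.612-fold to 1.41-fold, does not hold a 2-fold change on the TMM scale. On library size alone the difference was −0.41 with an interval of −1.05 to 0.23, which holds a 2-fold decrease (adjusted p = 0.349, edgeR QLF). The sign of the difference depended on single libraries, being 0.082 without 0 h replicate 2 and 0.017 without 6 h replicate 1.

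Csf1r is a defining gene of macrophages, and 9 of the 14 macrophage markers listed could be matched. Their summed level was 16.6 to 36.4 CPM at 0 h and 20.9 to 41.1 CPM at 6 h, again with overlap, and none of the 9 was at 0 in all libraries. The libraries with the least Csf1r at each time point, 0 h replicate 3 and 6 h replicate 1, also had the lowest macrophage sums, but the highest sum at 0 h was in replicate 1 (36.4 CPM) and the most Csf1r in replicate 2 (sum 26.6 CPM). Only Cd68, which encodes a lysosomal glycoprotein abundant in macrophages, was a DEG, at 0.947, 0.619 and 1.51 CPM in the 0 h libraries and 3.96, 4.68 and 9.34 CPM in the 6 h libraries (log2 fold change 2.55, standard error 0.499, adjusted p = 0.0129, edgeR QLF). The other 8 markers had log2 fold changes of −0.16 (Lyz2) to 1.5 (Itgam). In pooled tissue, a difference in the number of cells of a type cannot be told apart from a difference in RNA per cell.

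**Figure D3:**
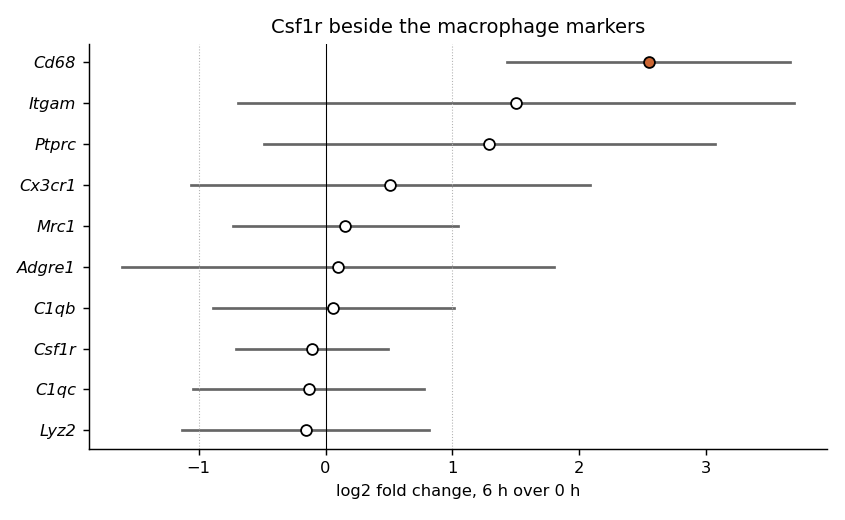
Log2 fold change at 6 h over 0 h PCS (x axis) with its 95% interval (line) for Csf1r and the 9 matched macrophage markers, DEGs filled, dotted lines at a 2-fold change. Cd68 (2.55) is the DEG, and the intervals of Csf1r and of the other 8 markers include 0.

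Csf2rb (ENSMUSG00000071713, chromosome 15, 78325800 to 78351001, GRCm38) had 6, 3 and 6 counts at 0 h and 8, 34 and 15 counts at 6 h, too few for the low-count filter. These were 0.258, 0.109 and 0.259 CPM at 0 h and 0.537, 1.53 and 0.904 CPM at 6 h, so the groups did not overlap but stood close to the level of a few reads. With a filter set at 5 instead of 10 counts, chosen after seeing the data, the log2 fold change was 2.23 (standard error 0.912, 95% interval 0.21 to 4.24) and did not pass (adjusted p = 0.18, edgeR QLF over 18662 genes). It did not pass without any filter either (2.22, adjusted p = 0.293), nor in any of the 6 fits with the filter at 5 counts that left out 1 library. Per kilobase of exon its level was 0.126 ± 0.0748 FPKM at 6 h (SD, n = 3), below each of the ligand transcripts in each 6 h library. Csf2rb lies beside Csf2rb2, a near-identical copy, and reads shared between both may have been lost or split in the counting, so its level is uncertain.

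Other genes are annotated over several of these loci. Gm40121 overlaps Csf1, Gm38985 overlaps Csf3, Gm52352 and Mir6983 overlap Csf1r, and Mir7676-2 overlaps Csf2rb. The strand setting of the counting is not stated in the sources used here, so reads of such partners cannot be told apart from those of the gene. Kitl overlaps no annotated gene, and its nearest neighbour, Gm17870, lies 25838 bases away.

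Of 15 further ligands and receptors of the same families, 5 could be matched, and none was a DEG. Csf2, encoding GM-CSF, had 0.903, 2.11 and 0.993 CPM at 0 h and 0, 3.55 and 2.17 CPM at 6 h (log2 fold change 0.52, 95% interval −1.88 to 2.93, adjusted p = 0.812, edgeR QLF). Il34, encoding the other ligand of CSF1R, had 2.32, 2.4 and 1.86 CPM at 0 h and 1.48, 6.52 and 1.45 CPM at 6 h (0.53, 95% interval −0.81 to 1.88, adjusted p = 0.646). In both genes 6 h replicate 2 was the highest of all libraries, and without it the log2 fold changes were −0.30 and −0.61.

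Among the receptors of this wider list, Csf2ra, the ligand-specific chain for GM-CSF, had 10.9 to 15.7 CPM at 0 h and 15.2 to 18.7 CPM at 6 h (log2 fold change 0.33, 95% interval −0.13 to 0.80, adjusted p = 0.377, edgeR QLF). Il3ra, the corresponding chain for IL-3, had 2.55 to 4.22 CPM and 3.79 to 5.13 CPM (0.40, 95% interval −0.37 to 1.18, adjusted p = 0.537). Epor, the erythropoietin receptor gene, had 3.83, 0.692 and 1.9 CPM at 0 h and 0.201, 0.899 and 0.121 CPM at 6 h (−2.32, 95% interval −4.32 to −0.32, adjusted p = 0.151), and its log2 fold change was −1.62 without 0 h replicate 1 and −3.71 without 6 h replicate 2. The time points overlapped in each of these 5 genes.

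**Figure D4:**
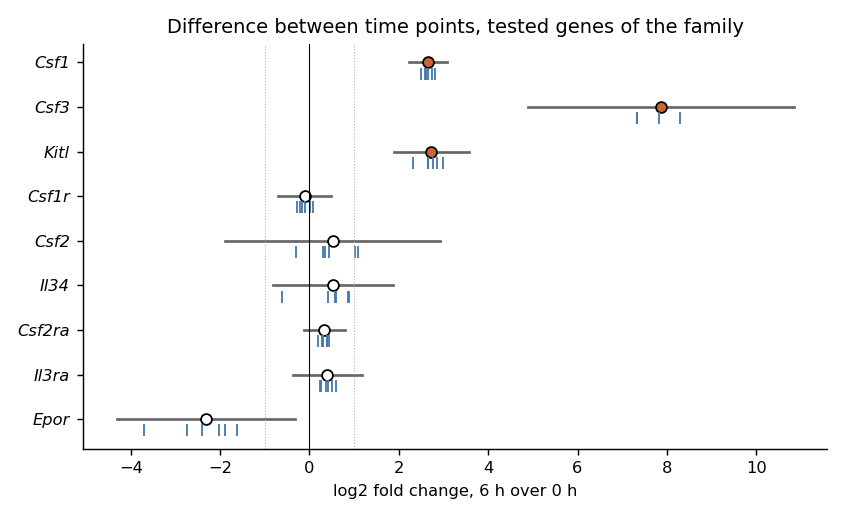
Log2 fold change at 6 h over 0 h PCS (x axis) with its 95% interval (line) for the tested ligand and receptor genes, DEGs filled, with blue ticks for the fits that left out 1 library and dotted lines at a 2-fold change. Csf1 (2.65), Kitl (2.72) and Csf3 (7.87) lie right of 0 with their whole intervals, the intervals of Csf1r, Csf2, Il34, Csf2ra and Il3ra include 0, and Epor (−2.32) did not pass the adjusted p.

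Receptors of this family signal through JAK kinases and STAT factors or, for CSF1R and KIT, through their own kinase domains. Of 32 signalling genes listed, 19 could be matched and were tested. Of these, 6 were upregulated and 0 downregulated, where 4.53% and 0.821% of all tested genes were. Jak2, Grb2 and Plcg1 passed the adjusted p without a 2-fold change, where 8.33% of all tested genes passed the adjusted p with or without such a change. These 19 genes had a median of 1.03 on the log2 scale, against −0.003 over all tested genes. The names at hand come from the study's supplementary lists and may lean towards changed genes, which was not measured. The count of DEGs on this list is therefore no independent evidence. Scaled on library size alone, 3 of the 19 were DEGs, and Stat3 (0.94), Cblb (0.89) and Jak1 (0.71) fell short of a 2-fold change, while DESeq2 and the exact test of edgeR each called 9.

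Among the DEGs of this list the largest increase was in Cish, encoding an inhibitor that STAT5 induces, at 1.21, 0.692 and 0.647 CPM in the 0 h libraries and 6.17, 9.4 and 16.8 CPM in the 6 h libraries (log2 fold change 3.67, standard error 0.462, adjusted p = 0.00149, edgeR QLF). Pim1, encoding a survival kinase and another STAT target, had 80.7, 50.3 and 44.4 CPM and then 286, 362 and 312 CPM (2.45, standard error 0.229, adjusted p = 0.000343). Both genes were thus higher in every 6 h library than in any 0 h library. Stat5a was at 8.27 to 9.97 CPM and then at 24.7 to 37.7 CPM (1.88, standard error 0.21, adjusted p = 0.000754), and Stat3 was at 99.2 to 132 CPM and then at 248 to 296 CPM (1.26, standard error 0.151, adjusted p = 0.00109). Many other cytokine receptors feed into the same kinases and factors, and which ligand these levels follow was not tested.

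**Figure D5:**
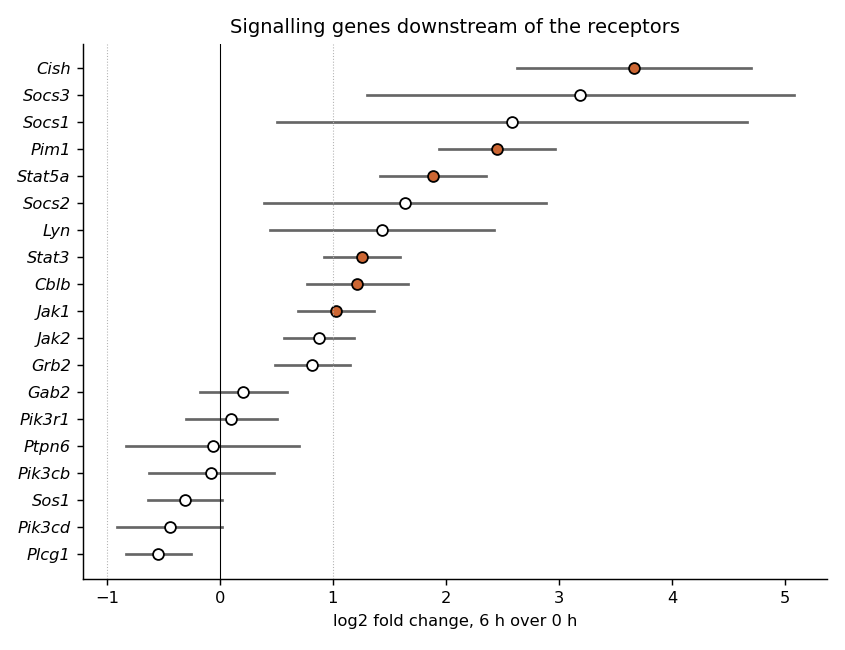
Log2 fold change at 6 h over 0 h PCS (x axis) with its 95% interval (line) for the 19 matched signalling genes, DEGs filled, dotted lines at a 2-fold change. The 6 DEGs are Cish (3.67), Pim1 (2.45), Stat5a (1.88), Stat3 (1.26), Cblb (1.22) and Jak1 (1.03).

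CSF1 and KITL are also made as membrane-bound forms that proteases release. Of 4 genes listed for this shedding, the iRhom genes Rhbdf1 and Rhbdf2 could be matched, and neither was a DEG (log2 fold changes 0.58 and 0.40, adjusted p = 0.182 and 0.14, edgeR QLF).

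The labelled cell type was checked with 5 matched markers of lens epithelium, whose sum was 1292 to 1514 CPM at 0 h and 833 to 1129 CPM at 6 h, without overlap. None was a DEG, but Pitx3 (log2 fold change −0.86, adjusted p = 0.00777, edgeR QLF), Sox2 (−0.70, adjusted p = 0.0151) and Prox1 (−0.75, adjusted p = 0.0119), which encode transcription factors of the lens, passed the adjusted p with every 6 h library below every 0 h library. Of the other matched markers, Foxe3 had all 6 h libraries above all 0 h libraries (0.28, adjusted p = 0.249, −0.03 on library size alone), and Pax6 overlapped (−0.51, adjusted p = 0.156). On library size alone Pitx3, Sox2 and Prox1 were downregulated DEGs (−1.16, −1.02 and −1.08). The 3 erythrocyte genes were all upregulated (Hbb-bs by 3.09, Hba-a1 by 3.03 and Alas2 by 2.86 on the log2 scale), with sums of 4.88 to 10.5 CPM at 0 h and 43 to 80.9 CPM at 6 h, which separated the time points as the ligands did. Hbb-bs and Hba-a1 have near-identical copies and are uncertain. Pigment cell markers (4 of 6 matched, 51.4 to 209 and 77.4 to 1965 CPM), endothelial markers (4 of 6, 4.1 to 26.3 and 20 to 36.9 CPM), stromal markers (3 of 4, 192 to 259 and 129 to 235 CPM) and lens fiber markers (1 of 8) held no DEG, and their sums overlapped between time points. Single markers did not all overlap: the endothelial genes Cdh5 (log2 fold change 3.33, adjusted p = 0.0529, edgeR QLF) and Pecam1 (1.98, adjusted p = 0.0644) had all 6 h libraries above all 0 h libraries, as the ligands did, and both were DEGs with DESeq2 (adjusted p = 0.00303 and 0.0111). Cdh5 had 9, 5 and 2 counts at 0 h and 14, 23 and 79 counts at 6 h. It passed the low-count filter only through the 6 h libraries, so a tested Cdh5 had to be higher there. Of the genes listed as stromal, Pdgfra (−0.73, adjusted p = 0.0179, edgeR QLF) and Dcn (−1.52, adjusted p = 0.161) had all 6 h libraries below. Both were downregulated DEGs on library size alone (−1.04 and −1.88). Dcn was also one with a replicate block (−1.76, adjusted p = 0.044) and without the low-count filter (−1.53, adjusted p = 0.021). Col1a1 overlapped and was 2.54 (adjusted p = 0.308), with 5.91 to 14.6 CPM at 0 h and 3.96, 37.7 and 116 CPM at 6 h. At 0 h the stromal sum was mostly Pdgfra (182 to 248 CPM), and which cells its reads came from was not tested. In the pigment cell markers 6 h replicate 3 stood apart, with a sum of 1965 CPM against 77.4 and 456 CPM in the other 6 h libraries, and the 4 genes had log2 fold changes of 2.43 to 3.13 without passing the test. Of the 6 h libraries, replicate 3 also had the most Col1a1, Dcn, Cdh5 and Pecam1, and the least Pdgfra, Kdr and Tek. This library also had the most Kitl, which without it was 2.32 on the log2 scale and still a DEG. No neutrophil, mast cell or lymphocyte marker could be matched, and these cells were not analysed here. The part of other cells in the ligand levels was not tested.

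The genes whose levels over the 6 libraries were most like those of a member were found by Pearson's r of log2(CPM + 1) over 6361 named genes. Since the 6 libraries are 2 time points, r mostly reads the difference between them and is given with no test. For Csf1 these were Blnk (an adaptor of B cell receptor signalling), Pak1 (a kinase of the cytoskeleton) and Map3k6, with r of 0.998 to 0.999. For Csf3 they were Lif (a cytokine of the IL-6 family), Prkx and Gm31045, with r of 0.994 to 0.997. Lif had 6.8, 6.05 and 4.75 CPM at 0 h and 65.8, 236 and 164 CPM at 6 h, with replicate 2 the highest and replicate 1 the lowest, the order that Csf3 had. For Kitl they were Gm22518, Foxq1 (a forkhead factor) and Frmd4b, with r of 0.995 to 0.996. Foxq1 had 6.78, 2.61 and 9.52 CPM at 6 h, highest in replicate 3 and lowest in replicate 2 as Kitl was. Lif and Foxq1 were picked by r over these same libraries, so the shared orders are no further evidence of likeness. For Csf1r they were Wdr6, Rcan3 and Dok6, with r of 0.965 to 0.987, none of them a DEG.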

How the data were processed

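LECs on lens capsules were profiled by total RNA-seq (paired ends, ribosomal RNA depleted). The authors aligned the reads with HISAT2 to GRCm38 and used HTSeq to count pairs for each Ensembl gene, and the deposited values are these raw counts, without normalization. The 5 summary rows that name no gene (58.8% to 66.4% of read pairs) were left out.

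Counts were fitted with edgeR 4.0.16 in R 4.3.3 (limma 3.58.1) as in the study's methods: TMM factors, edgeR's low-count filter (minimum count 10), robust dispersions and the quasi-likelihood F-test in its earlier form, which gave 900 DEGs. Group was the only term, a choice made here, since the study's methods do not state the terms. Standard errors are the log2 fold change divided by the square root of F. The scripts were tested on simulated data. FPKM was computed from total gene counts and exon lengths listed by the study, with none at hand for Csf1r. Symbols were taken from the study's shortened supplementary lists, which name 7013 of 55421 genes. Coordinates come from RefSeq (GRCm38). No sequences were used here.

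The genes, gene lists (wider family, signalling, shedding and cell type markers) and tests were chosen with earlier results of these data known. Named were the 6 genes, matched wider family genes, up to 4 DEGs per list and direction, the 3 genes most like each tested member, and overlapping or nearest genes. Others named on these lists were chosen after their values were seen. Alternatives were DESeq2 1.42.0, edgeR's exact test, its newer quasi-likelihood form, no robust estimation, other scalings and filters, a test against a 2-fold change (glmTreat), a replicate block, FPKM on TMM sizes and leaving out each library. Other exon lengths and the description of promoters and proteins were not run.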

Additional observations from a re-analysis of the deposited data

How the results depend on the processing

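Csf1 and Kitl were DEGs in all 17 alternatives, with log2 fold changes of 2.34 to 2.80 and 2.32 to 3.00. Csf3 was not a DEG against a 2-fold change with glmTreat (7.87, adjusted p = 0.0606), and with single libraries left out, other than 0 h replicate 2, its log2 fold change was 7.33 to 8.28 (adjusted p = 0.0109 to 0.0683). Csf1r was a DEG in none, was −0.41 on library size, and ran from −0.29 to 0.082 with single libraries left out (0.082 without 0 h replicate 2, 0.017 without 6 h replicate 1). Over all genes there were 900 DEGs, 221 with glmTreat and 553 to 877 with single libraries left out (553 without 0 h replicate 1). The signalling list held 6 DEGs, 3 on library size, 3 with glmTreat, 8 without the low-count filter and 9 each with DESeq2 and the exact test of edgeR. The wider family held 1 without the low-count filter (Epor, −2.33, adjusted p = 0.0399). The marker lists held 4 DEGs, 10 on library size, 7 without the filter and 2 with glmTreat. The causes of these changes were not tested. On library size 572 genes were upregulated, against 762 with TMM.

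Deviations of same-numbered pools from their group means correlated over 0.1 in 2 of 3 pairs (r = −0.01, 0.31 and 0.16), and 0 h replicate 1 correlated best with 6 h replicate 3 (0.07), the other 0 h pools with their own number. The labels tie no pools by number, so the pools were treated as unpaired, and whether some share mice was not tested. With a replicate block there were 1050 DEGs, Csf1, Csf3 and Kitl among them, and Csf2 turned to −0.10. With single libraries left out, Csf2 ran from −0.30 to 1.09 and Il34 from −0.61 to 0.88, both lowest without 6 h replicate 2. FPKM on TMM sizes moved no ligand level by more than 1 SD. Another exon length source was not run. At 0 h, depth limits Csf3 and Csf2rb, which had at most 10 counts per library.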

Other observations

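Inhibitors that cytokine receptors induce against their own signalling were singled out after their values were seen. Beside Cish, the genes Socs1, Socs2 and Socs3 had all 6 h libraries above all 0 h libraries. The same held for 15.3% of all tested genes and for 12 of the 19 signalling genes, these included. None of the 3 Socs genes passed the adjusted p in the QLF test of edgeR, and their calls depended on the tool. Socs3 was a DEG with DESeq2 (adjusted p = 0.000451), with the exact test of edgeR (adjusted p = 0.000305), without robust estimation (adjusted p = 0.0104) and with a replicate block (adjusted p = 9.06e-06). Socs1 was a DEG with the exact test of edgeR (adjusted p = 0.0366) and not with DESeq2 (adjusted p = 0.0569). Socs2 was a DEG with DESeq2 (adjusted p = 0.0357) and without the low-count filter (adjusted p = 0.021) and not with the exact test of edgeR (adjusted p = 0.0514). Socs3 had 94.7, 20.7 and 35.2 CPM at 0 h and 681, 265 and 425 CPM at 6 h (log2 fold change 3.19, standard error 0.735, adjusted p = 0.0712, edgeR QLF). Socs1 had 5.08, 0.364 and 2.29 CPM at 0 h and 8.46, 17 and 20.5 CPM at 6 h (2.58, standard error 0.852, adjusted p = 0.137). Socs2 had 1.89, 2.11 and 0.388 CPM at 0 h and 4.97, 4.14 and 4.64 CPM at 6 h (1.64, standard error 0.56, adjusted p = 0.11). The 0 h libraries of each spread widely, with Socs1 and Socs3 lowest in 0 h replicate 2 and Socs2 lowest in 0 h replicate 3. Cblb, which encodes a ubiquitin ligase acting on activated receptors, was a DEG, with 21.3 to 29.4 CPM at 0 h and 51.7 to 77.8 CPM at 6 h (1.22, standard error 0.2, adjusted p = 0.00574). Ptpn6, of the same signalling list, overlapped between time points (−0.06, adjusted p = 0.935, edgeR QLF).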
